A study of Mus musculus with 3 samples.

Results

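Glycogen metabolism genes of brown adipose tissue (BAT) are described here through 8 members, chosen by name from the gene columns of 3 tables that together list 25154 genes, and all 8 are in every table. Nuclei of the floating layer of digested mouse interscapular BAT, which holds brown adipocytes (BAs) with fragments of vasculature, were sequenced on the BD Rhapsody platform in 1 library per condition. All 3 libraries are labelled as adult wild-type C57Bl6 mice, while the run name in the header of the denervated table holds the letters nKO, which no source used here explains. In the untreated library the BAT had received no treatment, in the denervated library it was taken at day 3 after the sympathetic nerves of 1 side had been cut, and the third library is labelled as a sham operation. Per the study's methods the mice were 8-week-old males, with 20 mice each behind the untreated and the denervated library. The diagram of the denervation experiment also lists tamoxifen administrations, and the study describes both sham-operated mice and a sham operation on the side opposite the denervated one, without saying which gave the sham library. With 1 library per condition, the condition and the library cannot be told apart, no test could be made, and every interval below is a 95% interval for counting error only.

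Glycogen is the branched polymer in which cells store glucose. Ugp2 makes UDP-glucose, the activated building block. Gyg primes a new particle, Gys1 and Gys2 (the synthases named for muscle and liver) lengthen its chains and Gbe1 adds the branches. Pygl, the phosphorylase named for liver, releases glucose units again. Ppp1r3b and Ppp1r3c bring protein phosphatase 1 to glycogen, where it switches the synthase on and the phosphorylase off. Brown adipocytes take up much glucose when sympathetic nerves stimulate them, and store part of it as glycogen.

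The promoters of 3 members are shown as a reference for the results between libraries, because Gbe1 and Ppp1r3c were among the members that differed most between libraries and the synthase Gys1 was not. They are the 250 bases before the gene start in RefSeq (build GRCm38.p6), written 5′ to 3′ on the strand of the gene, with capitals marking a searched motif. The windows lie at chr19:36736605-36736854 on the minus strand for Ppp1r3c, chr16:70313699-70313948 on the plus strand for Gbe1 and chr7:45434589-45434838 on the plus strand for Gys1.
Ppp1r3c: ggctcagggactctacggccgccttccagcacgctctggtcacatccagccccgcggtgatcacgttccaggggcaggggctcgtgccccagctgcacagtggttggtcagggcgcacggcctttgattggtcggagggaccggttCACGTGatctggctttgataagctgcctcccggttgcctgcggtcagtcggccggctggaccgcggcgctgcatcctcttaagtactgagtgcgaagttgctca
Gbe1: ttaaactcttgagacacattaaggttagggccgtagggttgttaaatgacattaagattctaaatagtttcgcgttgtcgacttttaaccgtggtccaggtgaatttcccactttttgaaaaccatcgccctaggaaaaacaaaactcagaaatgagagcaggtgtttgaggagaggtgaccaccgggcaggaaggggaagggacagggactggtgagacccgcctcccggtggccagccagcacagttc
Gys1: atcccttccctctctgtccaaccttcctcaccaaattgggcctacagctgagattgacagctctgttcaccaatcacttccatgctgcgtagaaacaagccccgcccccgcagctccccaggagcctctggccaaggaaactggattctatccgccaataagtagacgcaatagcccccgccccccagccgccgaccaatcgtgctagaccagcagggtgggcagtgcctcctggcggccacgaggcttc
The motifs searched on both strands were CACGTG (the E-box bound by ChREBP, USF and clock factors), TGACGTCA (the cAMP response element), TGTTTAC (forkhead factors) and the DR-1 direct repeat bound by PPAR with RXR. RefSeq promoters matched 6 of the 8 members, Ppp1r3b and Gys2 being the other two. Ppp1r3c was the 1 member with a match, a CACGTG beginning 104 bases before the start, at position -104. Over 32851 promoters of this length, 6.02% held CACGTG, 1.55% TGACGTCA, 3.17% TGTTTAC and 0.0335% the direct repeat. The Gbe1 window had 48.8% G and C, against 64.4% for Ppp1r3c, with a median of 52.4% over all these promoters.

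The genes differ widely in size on GRCm38 (positions from GENCODE). Ppp1r3c is compact, with 2 exons over 4.92 kb at chr19:36731731-36736653 on the minus strand, and Ppp1r3b has 3 exons over 12.4 kb at chr8:35375739-35388139 on the plus strand. Gys1 has 16 exons over 21.8 kb at chr7:45434844-45456619 on the plus strand, and Gys2 has 17 exons over 50.5 kb at chr6:142422613-142473109 on the minus strand. Pygl has 20 exons over 40.7 kb at chr12:70190811-70231488, Ugp2 has 10 exons over 50.1 kb at chr11:21321138-21371201 and Gyg has 7 exons over 33.2 kb at chr3:20122084-20155317, all on the minus strand. Gbe1, with 17 exons on the plus strand, is by far the longest at 256 kb, chr16:70313949-70569716. On the opposite strand, Gys1 overlaps Ruvbl2, Pygl the noncoding F730035M05Rik, Ppp1r3b the noncoding Gm45469 and Ugp2 the noncoding Gm12043, and Mir1933 lies within Ugp2 on the same strand. Whether the counting used strand is not given in the sources used here. Over all barcodes of the untreated, sham and denervated libraries, not BA-like nuclei alone, Ruvbl2 itself had 643, 676 and 297 UMIs. F730035M05Rik had 109, 81 and 41, while the other overlapping genes were not analysed here.

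The untreated, sham and denervated tables held 14971579, 14725864 and 9420030 UMIs (unique molecular identifiers, each standing for 1 captured RNA molecule), of which 86029, 29177 and 44410 were of the 8 members. After filters and removal of doublets, 10957, 12451 and 9866 nuclei were kept. Nuclei were clustered without the members and named from marker lists, giving 4585, 3447 and 4987 brown adipocyte-like (BA-like) nuclei with a median of 1815, 1371 and 888 UMIs, and 5413, 5844 and 2773 endothelial cell-like (EC-like) nuclei with a median of 671, 525 and 404. All 9 BA markers in the tables had UMIs in the BA-like nuclei of each library, at a summed level of 7169, 9376 and 8985 CPM (UMIs per 1000000 UMIs of the class), while the 10 endothelial markers summed to 292, 333 and 229 CPM there. The sham library stood apart in its mitochondrial share, 6.33% of the UMIs of BA-like nuclei against 3.17% in untreated and 1.85% in denervated. Its BA-like nuclei also had 1764 CPM of Adrb3, the adrenergic receptor of adipocytes, against 584 and 615 CPM, and 38.4 CPM of Kit, the stem cell factor receptor, against 315 and 196 CPM. Of the genes that nerves are known to drive, Elovl3 was at 4.81 CPM (3.08 to 7.16) in denervated against 11.4 and 13.9 CPM in untreated and sham, Ucp1 was at 311 against 348 and 402 CPM, Dio2 was at 38.1 against 22.1 and 23.1 CPM and Ppargc1a was at 290 against 285 and 193 CPM. Between libraries, 251 to 278 barcodes were shared, against 238 to 275 if labels were drawn at random from 884736.

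The first question was in which nuclei of the tissue the members are found. In untreated and sham BAT all 8 members were at least 2-fold higher in BA-like than in EC-like nuclei, as 26.3% and 24.1% of all genes tested were, with 18.6% and 19.5% at least 2-fold lower. In denervated BAT 6 of 8 passed 2-fold, against 16.3% of all genes higher and 15.2% lower, and Ugp2 and Gyg did not. This count of 6 fell to 3 with a minimum of 500 detected genes and to 0 after subtraction of ambient RNA. In that subtraction the estimated ambient share of denervated EC-like nuclei met its upper limit of 90.0%. The share of all genes past 2-fold was not computed under these alternatives, so these counts have no background beside them. Of genes, those with at least 50 UMIs over both groups counted as tested.

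Ppp1r3b, the phosphatase subunit, had 4775 CPM (4728 to 4822) in untreated BA-like nuclei, 1555 CPM (1520 to 1591) in sham and 3133 CPM (3084 to 3183) in denervated. In EC-like nuclei of the same libraries it had 538, 98.7 and 899 CPM. The log2 ratio of BA-like over EC-like nuclei was 3.15 (3.09 to 3.21), 3.98 (3.83 to 4.13) and 1.80 (1.72 to 1.88). Thus Ppp1r3b was higher in BA-like than in EC-like nuclei of every library, and this gap was smallest in denervated BAT. Over all genes tested the 95th percentile of this ratio was also smallest there, at 1.58 against 2.74 in untreated and 2.71 in sham. Ppp1r3b lay above 97.2%, 99.3% and 97.5% of genes tested in untreated, sham and denervated. It was detected in 95.1%, 70.3% and 78.9% of BA-like nuclei and in 23.5%, 3.76% and 21.2% of EC-like nuclei.

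Pygl, the phosphorylase, was also higher in BA-like than in EC-like nuclei, with 1562 CPM (1536 to 1589), 1318 CPM (1286 to 1351) and 1140 CPM (1111 to 1171) in untreated, sham and denervated BA-like nuclei. The log2 ratio over EC-like nuclei was 3.26 (3.15 to 3.38), 3.74 (3.58 to 3.89) and 1.61 (1.48 to 1.74). Gys1, the synthase, had 655 CPM (638 to 673), 832 CPM (806 to 858) and 765 CPM (741 to 790) in BA-like nuclei. In EC-like nuclei Gys1 had 91.7, 84.7 and 248 CPM, the highest value being in denervated. For 7 adipocyte markers (below), the median log2 ratio of BA-like over EC-like nuclei was 2.87, 2.91 and 1.56, also smallest in denervated. The part of carried-over adipocyte RNA in the Gys1 level of EC-like nuclei was not tested.

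Gbe1, the branching enzyme, had 1255 CPM (1231 to 1279) in untreated, 351 CPM (335 to 368) in sham and 1451 CPM (1418 to 1485) in denervated BA-like nuclei, and 187, 99.2 and 517 CPM in EC-like nuclei. Ppp1r3c had 222 CPM (212 to 232), 95.3 CPM (86.7 to 104) and 191 CPM (179 to 204) in BA-like nuclei. Both were lowest in sham. Ugp2, which makes UDP-glucose, was also lowest in sham, with 140 CPM (132 to 148), 77.0 CPM (69.4 to 85.3) and 148 CPM (138 to 159). Its interval in untreated overlapped that in denervated.

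Gyg, the primer of new particles, varied least, with 78.9 CPM (73.0 to 85.2), 69.9 CPM (62.6 to 77.8) and 68.0 CPM (60.9 to 75.6), and the intervals of the 3 libraries overlapped. It was the member with the smallest ratio over EC-like nuclei in untreated, a log2 of 1.0 (0.75 to 1.27) at the 2-fold line. Gys2, the synthase of liver, was the rarest member, with 219, 191 and 134 UMIs, which gave 26.3 CPM (22.9 to 30), 40.1 CPM (34.6 to 46.2) and 26.9 CPM (22.5 to 31.8). Levels are not compared between genes, since the files give no level per length.

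**Figure D1:**
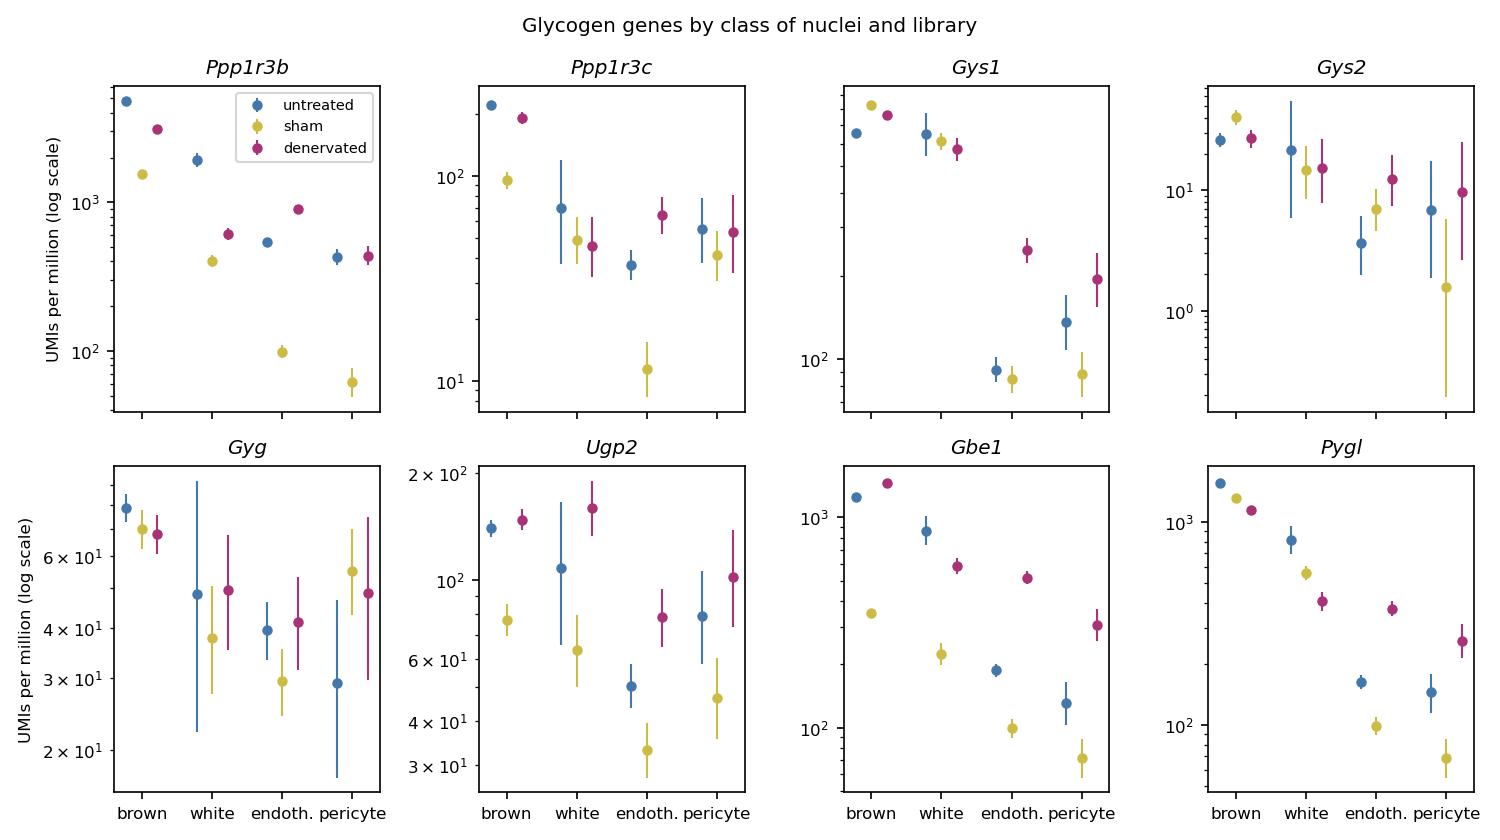
CPM (log scale, 1 scale per gene) of the 8 members in brown adipocyte-like, white adipocyte-like, endothelial-like and pericyte-like nuclei, with a point per library and bars for the 95% counting interval. Each member is higher in brown than in endothelial nuclei of each library, and for Ppp1r3b and Gbe1 the sham points lie below the other two in all 4 classes.

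Adipocyte markers were also found in EC-like nuclei. Of the 10 in the list, Cd36, Lpl and Pparg are kept apart here, as they were left out of the list used for doublets after the clusters were seen. Over the other 7 the log2 ratio of BA-like over EC-like nuclei had a median of 2.87 (range 1.32 to 3.46) in untreated, 2.91 (1.98 to 3.57) in sham and 1.56 (1.03 to 1.88) in denervated. The 8 members had medians of 2.79, 2.79 and 1.53 in the same libraries. Cd36, a fatty acid transporter that ECs also have, had -2.13, -2.13 and -1.35, Lpl had 0.31, 0.92 and 0.60, and Pparg had 1.19, 0.85 and 1.08. Gyg lay below the lowest of the 7 markers in each library, at 1.0, 1.25 and 0.72, Ugp2 did so in sham at 1.21 and in denervated at 0.91, and Gbe1 in sham at 1.82. After subtraction of the RNA profile of near-empty barcodes, 7 members in untreated, 8 in sham and 0 in denervated BAT passed 2-fold. The share of all genes past 2-fold after this subtraction was not computed. The estimated ambient share of EC-like nuclei was 59.9% in untreated and met its upper limit of 90.0% in both sham and denervated. The part of carried-over RNA in the levels of EC-like nuclei was not tested further.

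White adipocyte-like nuclei, 129 in untreated, 881 in sham and 877 in denervated, are the class most like the BAs. They were defined by Slc7a10, Nnat and other white adipocyte markers, and the denervated cluster was led by Cxcl1, Irf1 and Ptx3. The 5 white adipocyte markers in the tables summed to 2365, 2074 and 1987 CPM in these nuclei, against 324, 178 and 528 CPM in BA-like nuclei. All 9 BA markers had UMIs in the white adipocyte-like nuclei too. They summed to 3838, 5497 and 2853 CPM there, against 7169, 9376 and 8985 CPM in BA-like nuclei. The highest single BA marker gave 1575, 3183 and 968 CPM of the sums in the white class. With the main settings Ppp1r3b was higher in BA-like than in white adipocyte-like nuclei of every library, with 1930, 403 and 613 CPM in the white class. The log2 ratio was 1.31 (1.16 to 1.46), 1.95 (1.81 to 2.08) and 2.35 (2.22 to 2.49). As background, 20.2%, 17.4% and 24.8% of all genes were at least 2-fold higher in the BA-like nuclei and 11.7%, 7.22% and 8.60% lower.

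Pygl was also higher in BA-like than in white adipocyte-like nuclei, by a log2 of 0.94 (0.70 to 1.18), 1.24 (1.12 to 1.36) and 1.49 (1.32 to 1.65). Ppp1r3c passed 2-fold in untreated at 1.67 (0.89 to 2.58) and in denervated at 2.06 (1.58 to 2.59), and lay just below 2-fold in sham at 0.97 (0.57 to 1.39). Gbe1 passed in denervated alone, at 1.30 (1.17 to 1.44), and Gys2 in sham alone, at 1.46 (0.74 to 2.27) from 17 UMIs in the white class. Gys1 had a log2 ratio of 0.01 (-0.25 to 0.28) in untreated, 0.44 (0.33 to 0.56) in sham and 0.42 (0.27 to 0.56) in denervated. For Ugp2 the interval spanned 0 in each library, and Gyg had 0.71 (-0.23 to 1.84), 0.89 (0.43 to 1.38) and 0.46 (-0.02 to 0.98). With all libraries clustered together, which put 1672 sham nuclei in the white class, the sham ratios were smaller, at 1.19 (1.11 to 1.27) for Ppp1r3b, 1.02 (0.93 to 1.10) for Pygl and 0.54 (0.24 to 0.84) for Ppp1r3c. With a minimum of 500 detected genes the untreated library had 0 white adipocyte-like nuclei, so it gave no ratio. Under the other alternatives run for this ratio, untreated values ran from 1.10 to 1.35 for Ppp1r3b and from 1.07 to 1.58 for Ppp1r3c.

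The second question was how the members of BAs differed after loss of the nerves, read against both controls. The 3 comparisons below share libraries, so each is given with its own values. Between denervated and untreated BA-like nuclei no member differed by 2-fold, against 4.08% of all genes higher and 1.35% lower. The median log2 ratio of the 8 members was -0.09 (-0.31 to 0.10), where bounds are medians of the members' bounds, beside -0.00 over all genes. The intervals of 4 members, Gyg among them, lay below 0 and those of 2 above. The share of all genes with an interval off 0 was not computed, so these counts have no background beside them. Ppp1r3b was lower in denervated by a log2 of -0.61 (-0.63 to -0.58), Pygl by -0.45 (-0.50 to -0.41) and Ppp1r3c by -0.21 (-0.33 to -0.10). Gys1 was higher at 0.22 (0.16 to 0.28) and Gbe1 at 0.21 (0.17 to 0.25).

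Between denervated and sham BA-like nuclei, 3 of 8 members were at least 2-fold higher and none lower, against 11.4% of all genes higher and 8.62% lower. Gbe1 differed most, with a log2 ratio of 2.05 (1.97 to 2.12), above 98.1% of genes tested. Ppp1r3b, at 1.01 (0.97 to 1.05), and Ppp1r3c, at 1.0 (0.84 to 1.17), lay at the 2-fold line, and Ugp2 lay just below it at 0.94 (0.76 to 1.13). Ppp1r3b moved to between 0.92 and 0.96 when the libraries were clustered together, when mitochondrial UMIs were left out of the totals, when nuclei were thinned or when each nucleus weighed the same, and Ppp1r3c moved to 0.77 in the last of these. The members of chain lengthening and breakdown did not follow, with Gys1 at -0.12 (-0.19 to -0.06), Gys2 at -0.58 (-0.91 to -0.25) and Pygl at -0.21 (-0.26 to -0.16). The median over the members was 0.45 (0.29 to 0.62), beside 0.03 over all genes.

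Between sham and untreated BA-like nuclei, 3 of 8 members were at least 2-fold lower in sham. Gbe1 was lower in sham by a log2 of -1.84 (-1.91 to -1.76), Ppp1r3b by -1.62 (-1.65 to -1.58) and Ppp1r3c by -1.22 (-1.37 to -1.07), against 8.66% of all genes at least 2-fold lower and 7.86% higher. Ugp2 had -0.86 (-1.03 to -0.69), just under a 2-fold difference. Gys1 was higher in sham at 0.34 (0.29 to 0.40) and Gys2 at 0.61 (0.32 to 0.90), and Pygl had -0.25 (-0.29 to -0.20). The median over the members was -0.55 (-0.70 to -0.44), beside -0.05 over all genes.

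**Figure D2:**
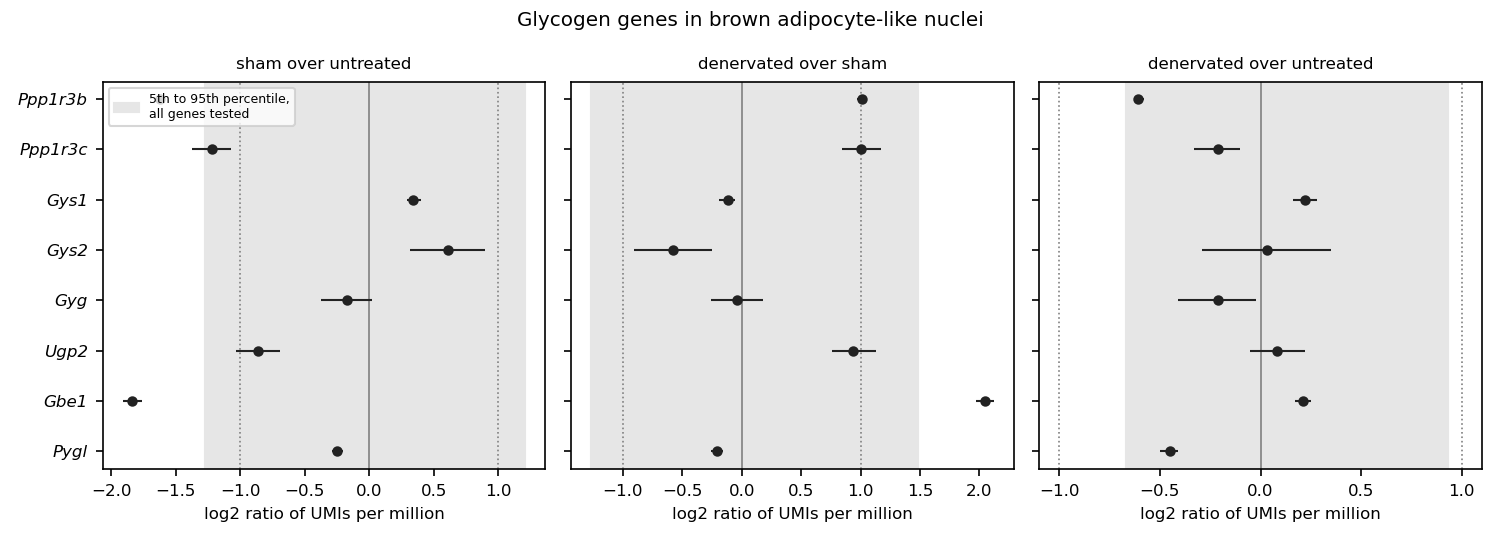
Log2 ratio of CPM in brown adipocyte-like nuclei for each member in the 3 comparisons between libraries, with bars for the 95% counting interval, dotted lines at 2-fold and grey from the 5th to the 95th percentile of all genes tested. Gbe1 lies outside the grey band in both comparisons with sham, and all 8 members lie within 2-fold between denervated and untreated.

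The members were also set against Gys1, a scale that needs no total. Gys1 itself was lowest in untreated, at 655 CPM against 832 in sham and 765 in denervated, so untreated values are raised on this scale. Per 100 UMIs of Gys1 in the same nuclei there were 728 UMIs of Ppp1r3b (708 to 749) in untreated, 187 (180 to 194) in sham and 409 (395 to 424) in denervated. For Gbe1 there were 191 (185 to 198), 42.2 (39.8 to 44.7) and 190 (182 to 197), so the untreated and denervated values of Gbe1 overlapped in their intervals. For Ppp1r3c the values were 33.8 (32.1 to 35.6), 11.5 (10.4 to 12.6) and 25 (23.2 to 26.8). For Pygl they were 238 (231 to 246), 158 (152 to 165) and 149 (143 to 155), with sham and denervated overlapping in their intervals. For Gyg they were 12 (11.1 to 13.1), 8.40 (7.49 to 9.40) and 8.88 (7.93 to 9.93). On this scale untreated lay above the other libraries without overlap, while the CPM intervals of Gyg overlapped.

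Shares of nuclei with a UMI depend on depth, so each nucleus was thinned to 500 UMIs, which left out 155, 213 and 554 shallower BA-like nuclei. Ppp1r3b then had a UMI in 83.1% of untreated nuclei (82.0% to 84.2%), 46.9% of sham (45.2% to 48.6%) and 68.3% of denervated (66.9% to 69.7%). At the same depth EC-like nuclei had one in 18.7%, 3.17% and 31.0%, with 1764, 2686 and 1765 of them left out. Gbe1 had a UMI in 43.8% (42.4% to 45.3%), 15.4% (14.1% to 16.7%) and 46.7% (45.2% to 48.2%) of BA-like nuclei, against 78.0%, 32.0% and 64.6% before thinning. Gys1 was found in 26.1% (24.8% to 27.4%), 31.8% (30.2% to 33.4%) and 30% (28.7% to 31.4%). The order of the libraries at equal depth was thus that of the CPM for these 3 genes.

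In the thinned nuclei at least 5 UMIs of Ppp1r3b were found in 11.3% of untreated, 0.618% of sham and 3.99% of denervated BA-like nuclei. Of the 8 members, none was detected in 2.93% of untreated, 16.9% of sham and 7.02% of denervated nuclei, and the most frequent number detected was 2 in untreated and denervated and 1 in sham.

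**Figure D3:**
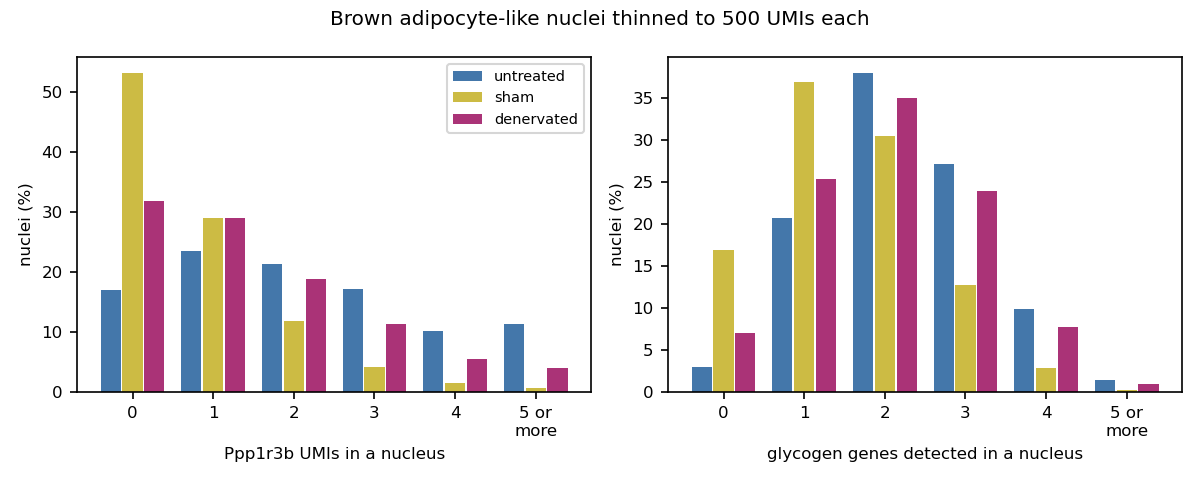
Share of brown adipocyte-like nuclei (percent), each thinned to 500 UMIs, by the number of Ppp1r3b UMIs in the nucleus and by the number of the 8 members detected in it, with a bar per library. The sham bars lead at 0 Ppp1r3b UMIs, at 53.1% of nuclei, against 16.9% in untreated and 31.7% in denervated.

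Within the BA-like class, sub-clusters led by heat-shock and immediate early genes (Hspa1a, Jun, Atf3) had less Ppp1r3b than the main sub-cluster of their library. In untreated BAT 378 such nuclei had 3110 CPM (2948 to 3279) against 4890 CPM (4841 to 4939) in the 3930 nuclei of the main sub-cluster. In sham 805 such nuclei had 1142 CPM (1076 to 1212) against 1679 CPM (1636 to 1723), and in denervated 1009 such nuclei had 2805 CPM (2678 to 2936) against 3192 CPM (3139 to 3246). Gbe1 had 1255 against 1257 CPM in untreated, 305 (271 to 342) against 360 CPM (340 to 381) in sham and 1432 against 1456 CPM in denervated. Smaller sub-clusters were led by mitochondrial genes (277 untreated nuclei), by interferon-induced genes such as Rsad2 (52 denervated nuclei) and by Zfp366 with endothelial genes (458 sham nuclei). In these Ppp1r3b had 3894, 2433 and 1468 CPM, also below the main sub-cluster of their library. Less Ppp1r3b than in the main sub-cluster was thus not particular to the sub-clusters led by heat-shock and immediate early genes. Without the 458 sham nuclei the members' median for denervated over sham was 0.43 and for sham over untreated -0.56. With the largest sub-cluster of each library alone, the medians were 0.37 and -0.47.

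Ppp1r3b and Gbe1 were compared between libraries outside the BAs as well. Ppp1r3b was lower in sham than in untreated white adipocyte-like nuclei by a log2 of -2.26 (-2.46 to -2.06), in EC-like nuclei by -2.45 (-2.61 to -2.29) and in pericyte-like nuclei by -2.79 (-3.18 to -2.42). Gbe1 was lower by -1.95 (-2.24 to -1.65), -0.92 (-1.10 to -0.73) and -0.87 (-1.32 to -0.41). Among EC-like and pericyte-like nuclei 2.68% and 2.54% of all genes, and among white adipocyte-like nuclei 7.97%, were at least 2-fold lower in sham. For denervated over sham the Ppp1r3b ratio was 3.19 (3.02 to 3.36) in EC-like and 2.83 (2.44 to 3.23) in pericyte-like nuclei. Of all genes, 10.5% and 6.63% were at least 2-fold higher there. In white adipocyte-like nuclei the Ppp1r3b ratio over sham was 0.60 (0.42 to 0.79). For denervated over untreated it was -1.65 (-1.85 to -1.45) there, against 4.01% of all genes 2-fold lower. Ppp1r3b of the denervated white class thus lay nearer to sham. Gbe1 in the white class had 1.39 (1.17 to 1.61) and -0.56 (-0.82 to -0.29) in these comparisons, nearer to untreated. In EC-like and pericyte-like nuclei Gbe1 had 2.38 (2.20 to 2.56) and 2.10 (1.70 to 2.51) for denervated over sham. For denervated over untreated it had 1.47 (1.32 to 1.61) and 1.24 (0.82 to 1.67) there, and Ppp1r3b had 0.74 (0.64 to 0.84) and 0.04 (-0.25 to 0.32). Of all genes, 8.64% and 4.88% were 2-fold higher in that comparison. The part of adipocyte RNA in the levels of EC-like and pericyte-like nuclei was not tested.

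Gene length moved with the comparisons. Of genes of at least 100 kb, the class of Gbe1, 10.2% were 2-fold lower in sham than in untreated and 26.6% were 2-fold higher in denervated than in sham, with medians of -0.25 and 0.53. For denervated over untreated their median was 0.25, beside 0.21 for Gbe1, and 9.73% were 2-fold higher. Of genes from 10 to 30 kb, the class of Ppp1r3b and Gys1, 7.95% were 2-fold lower in sham than in untreated and 6.58% were 2-fold higher in denervated than in sham, with medians of 0.04 and -0.13. The Ppp1r3b ratio of -1.62 lay beyond the 5th percentile of -1.22 of its length class for sham over untreated, while its ratio of 1.01 for denervated over sham lay inside the 95th of 1.16. Ppp1r3c, in the class under 10 kb, lay inside both, at -1.22 with a 5th percentile of -1.32 and at 1.0 with a 95th of 1.12. The Gbe1 ratios of -1.84 and 2.05 lay beyond the 5th percentile of -1.34 and the 95th of 1.91 of their own length class. The part of length, and of the mitochondrial share of sham, in these results was not tested.

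The other genes of the pathway were counted from a list of 24, of which 22, 20 and 22 had enough UMIs between denervated and untreated, denervated and sham, and sham and untreated. Between denervated and untreated none differed by 2-fold, against 4.08% of all genes higher and 1.35% lower, with a median log2 ratio of -0.05. Between denervated and sham 4 were higher and 1 lower, against 11.4% and 8.62% of all genes, with a median of 0.14, and between sham and untreated 2 were higher and 5 lower, against 7.86% and 8.66%, with a median of -0.19. Over EC-like nuclei of the same library 10, 6 and 2 of 22, 20 and 19 were higher in BA-like nuclei and 3, 2 and 2 lower in untreated, sham and denervated, against 26.3%, 24.1% and 16.3% of all genes higher and 18.6%, 19.5% and 15.2% lower. Gsk3b, a kinase that inhibits glycogen synthase, had 760, 225 and 646 CPM, and a log2 ratio of -1.76 (-1.85 to -1.66) for sham over untreated and 1.52 (1.42 to 1.62) for denervated over sham.

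Epm2a, the glycogen phosphatase laforin, had 49.4, 21.6 and 55.5 CPM, and its partner Nhlrc1 (malin) had 62 UMIs in untreated and 6 in sham, a log2 ratio of -2.56 (-4.06 to -1.36). Gaa, which breaks glycogen down in lysosomes, had 33.2, 50.4 and 33.9 CPM and a log2 ratio of 0.60 (0.35 to 0.86) for sham over untreated. Stbd1, which links glycogen to membranes, had a log2 ratio of -1.61 (-2.51 to -0.80) for sham over untreated and 1.16 (0.25 to 2.14) for denervated over sham. Of the other phosphorylases, Pygb of brain had 93.7, 47.9 and 104 CPM and a log2 ratio of 1.12 (0.89 to 1.35) for denervated over sham, and Pygm of muscle had 45, 8 and 23 UMIs and a log2 ratio of -1.68 (-2.98 to -0.58) for sham over untreated.

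The catalytic subunits of phosphorylase kinase went the other way. Phkg1 was higher in sham than in untreated by 1.54 (1.28 to 1.80) and Phkg2 by 1.11 (0.87 to 1.35), and Phkg2 was lower in denervated than in sham by -1.20 (-1.49 to -0.92). Of the other glycogen-targeting subunits, Ppp1r3a of muscle had at most 1 UMI in the BA-like nuclei of each library. Of 7 genes for glucose entry, Slc2a4, the insulin-responsive transporter, and Hk2, a hexokinase, were 2-fold lower in sham than in untreated, by -1.29 (-1.37 to -1.20) and -1.21 (-1.27 to -1.14), as 8.66% of all genes were. Of the 6 with enough UMIs none differed by 2-fold in the other comparisons between libraries, against 4.08% of all genes higher and 1.35% lower for denervated over untreated and 11.4% and 8.62% for denervated over sham.

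**Figure D4:**
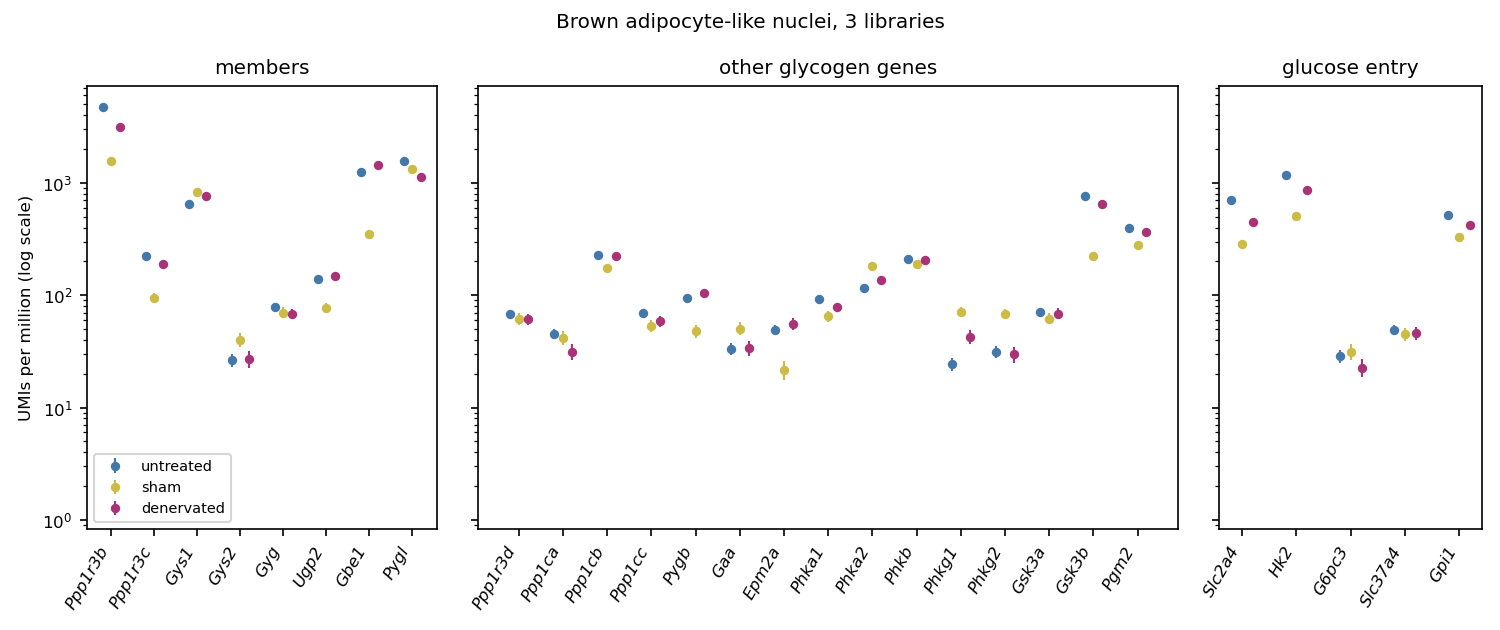
CPM (log scale) in brown adipocyte-like nuclei of the 3 libraries for the members, for 15 of 24 other glycogen genes and for 5 of 7 glucose entry genes, those with at least 100 UMIs in every library, with bars for the 95% counting interval. Gsk3b, Slc2a4 and Hk2 share with Ppp1r3b and Gbe1 a sham point below the other two, while Phkg1 and Phkg2 have it above.

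The third question was whether the members differ between BAs with and without Kit, the comparison in which the study examined the denervated BAT. There the study reported higher Ppp1r3b in BAs with Kit than in those without. It used the MAST test on nuclei after its own removal of ambient RNA, and its methods describe no matching on depth. A Kit UMI was found in 1717 of the untreated (37.4%), 157 of the sham (4.55%) and 788 of the denervated BA-like nuclei (15.8%). Nuclei with a Kit UMI were deeper, with a median of 2086, 1644 and 1192.5 UMIs against 1600, 1361 and 848, so the groups were matched on UMIs per nucleus. That kept 1587, 157 and 788 nuclei in each group, with Kit itself left out of the totals. A nucleus without a Kit UMI may still express Kit, and a single Kit UMI may come from ambient RNA. The estimated ambient share of BA-like nuclei was 5.09% in untreated, 7.17% in sham and 2.11% in denervated, and its part in the Kit groups was not tested.

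At matched depth Ppp1r3b had 5015 against 4863 CPM in untreated, 1908 against 1632 CPM in sham and 3715 against 3331 CPM in denervated nuclei with and without Kit. The log2 ratio was 0.04 (0.01 to 0.08), 0.23 (0.03 to 0.42) and 0.16 (0.09 to 0.23). The ratio of Ppp1r3b was thus under 2-fold in each library, with a counting interval above 0. It lay inside the 5th to 95th percentile over all genes, which was -0.39 to 0.40, -0.56 to 0.58 and -0.49 to 0.50. Spread between nuclei is not covered by the counting intervals. Without matching the ratio was 0.15 (0.12 to 0.18), 0.31 (0.18 to 0.45) and 0.31 (0.26 to 0.37). With at least 2 Kit UMIs as the line it was 0.12 (-0.03 to 0.27) in denervated.

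Ppp1r3c, the related subunit, had 0.45 (0.23 to 0.66) in denervated without matching and 0.14 (-0.13 to 0.41) with it. Pygl had 0.10 (0.05 to 0.16), 0.18 (-0.02 to 0.39) and 0.08 (-0.04 to 0.19) at matched depth. Gbe1 had -0.00 (-0.07 to 0.06), -0.24 (-0.68 to 0.19) and 0.12 (0.01 to 0.22), and Gys1 had 0.04 (-0.05 to 0.13), -0.19 (-0.48 to 0.09) and 0.06 (-0.09 to 0.20). The intervals of Ppp1r3c, Gys1, Ugp2 and Gyg spanned 0 in each library.

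No member with at least 50 UMIs over both groups, 8, 5 and 8 in untreated, sham and denervated, differed by 2-fold. Over all genes 0.151%, 0.420% and 0.245% were 2-fold higher with Kit and 0.101%, 0.587% and 0.230% lower. Gys2 in sham was past 2-fold at -1.36 (-2.87 to -0.04) from 7 against 18 UMIs. The median over the members was 0.04 (-0.07 to 0.16), -0.22 (-0.67 to 0.33) and 0.07 (-0.11 to 0.32).

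**Figure D5:**
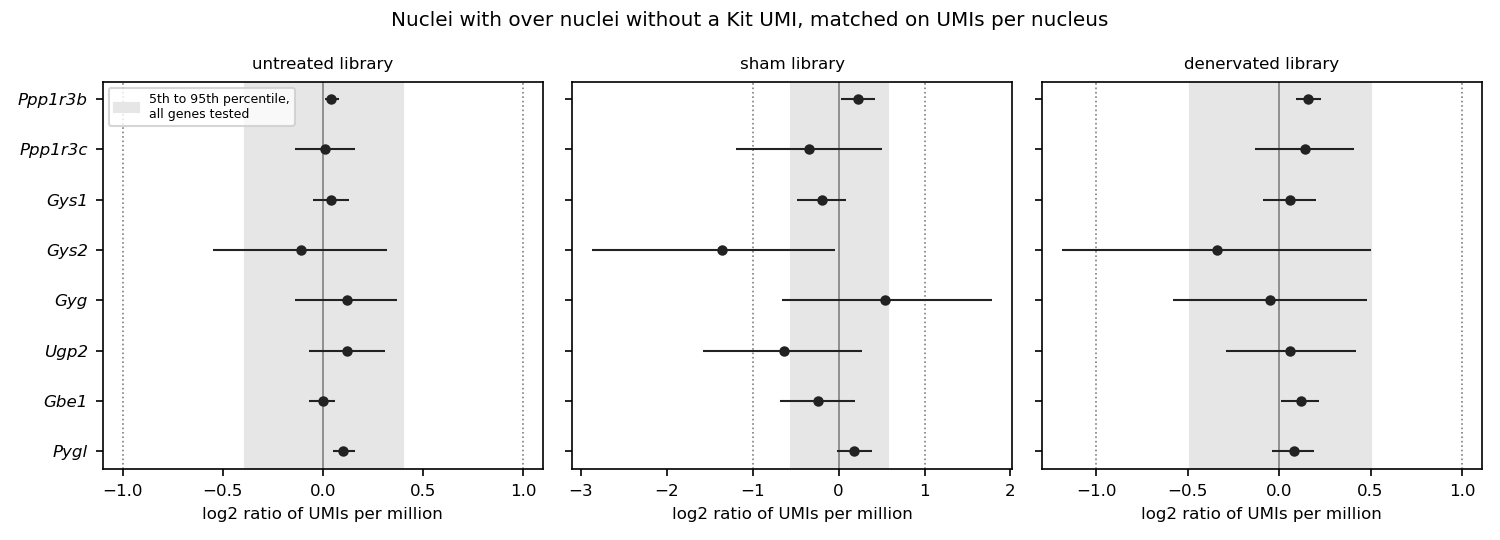
Log2 ratio of CPM in brown adipocyte-like nuclei with over those without a Kit UMI, matched on UMIs per nucleus, for each member in each library, with bars for the 95% counting interval, dotted lines at 2-fold and grey from the 5th to the 95th percentile of all genes tested. Ppp1r3b lies above 0 in each library and within the grey band, and the wide bars in sham go with 157 nuclei per group.

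Over 33 clusters of at least 50 nuclei in the 3 libraries, the genes whose levels ran most like those of the members, by Pearson's r of log2(CPM + 10) among 3640 genes, were taken for 7 members, Gys2 being left out for its few UMIs. Nearest to Ppp1r3b were Gpd1, which makes glycerol 3-phosphate (r = 0.957), the fatty acid synthase Fasn (0.953) and the transketolase Tkt (0.952). Nearest to Pygl was Mlxipl, which encodes ChREBP (0.963), and nearest to Gbe1 was Acaca, acetyl-CoA carboxylase (0.952). Gys1 ran with Plin1, the lipid droplet protein (0.963), Ppp1r3c with Tusc5 (0.894), Ugp2 with Slc22a3 (0.884) and Gyg with Brpf1 (0.790). Candidates were genes with at least 500 UMIs in untreated BA-like nuclei. The clusters span adipocyte-like and other classes, so r also holds the difference between classes, and the part of this was not tested. They share 3 libraries and differ in depth, so these values are a description.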

How the data were processed

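Nuclear RNA of BAT was measured in 1 library per condition. The deposited files hold UMI counts per gene and nucleus as the authors' pipeline wrote them, without normalization. The BD Rhapsody WTA Analysis Pipeline 1.9, GRCm38 and GENCODE vM19 are named in 2 file headers, and the sham table lacks a header, while the submitters' processing notes list Seurat 4.0.6 and GRCh38. The study's own removal of ambient RNA was not repeated.

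The filter required 200 detected genes per barcode and a mitochondrial share of no more than 50%. A nucleus was called a doublet when 2 marker lists that exclude each other both reached 3 UMIs and the weaker came to 25% or more of the stronger, and 835, 1576 and 596 were removed (untreated, sham, denervated). Each library was clustered on its own, without the members, by Louvain clustering (resolution 0.5, 20 neighbours) on 30 principal components of 2000 variable genes, and adipocytes were clustered again. Naming a cluster took 3 or more markers of a list with 3 UMIs each and a 2-fold higher CPM there, and 24 untreated nuclei stayed unnamed. UMIs were summed per class and library and given as CPM with exact Poisson intervals, shares with Clopper-Pearson intervals and ratios with exact conditional binomial intervals. All intervals are at 95% and cover counting error only. Genes with at least 50 UMIs over both groups were counted past 2-fold. The calculation of ratios was tested on simulated Poisson counts, the error that the intervals assume. At least 98.3% of the genes changed by a log2 of 0.5 had the right sign in each comparison. The simulated counts held no spread between nuclei or libraries. Python 3.11.15, numpy 2.4.6, scipy 1.17.1, scikit-learn 1.9.0, python-igraph 0.11.9 and matplotlib 3.10.9 were used.

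The members and lists were chosen with earlier results of these data known. The naming rule, the removal of Cd36, Lpl and Pparg from the list used for doublets, the length classes, the recomputed ratios of brown over white nuclei and 3 alternatives (brown and white nuclei together, the largest brown sub-cluster alone, and sham without 1 sub-cluster) were chosen after the clusters were seen. All 8 members are named, though not each of them in every comparison. Other glycogen and glucose genes are named where they pass 2-fold between libraries, with Ppp1r3a added for its low counts and Gaa for its role. Genes past 2-fold between classes are counted, and for likeness the nearest genes by r are named. Ppp1r3g, counted in the list of 24, is in 2 of the 3 tables and had too few UMIs in each comparison. Cpt1b, Hoxc8, Hoxc9 and Hoxc10 are not analysed here. A gene of the glycogen list beyond these 24 is not reported here.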

Additional observations from a re-analysis of the deposited data

How the results depend on the processing

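Depth set the limits, since denervated BA-like nuclei had a median of 888 UMIs, and Gys2 and the sham nuclei with Kit had few UMIs. No paired analysis was possible because each condition has 1 library, and for the same reason no replicate could be left out. The count of members at least 2-fold higher in BA-like than in EC-like nuclei of the denervated library, 6 with the main settings, was 3 with a minimum of 500 detected genes and 0 after subtraction of ambient RNA. The estimated ambient share of those EC-like nuclei met its upper limit of 90.0%. In the untreated library this count was 8 with the main settings and 7 under most alternatives, since Gyg lies at the 2-fold line. The share of all genes past 2-fold was computed with the main settings only. The log2 ratio of Gys2 with over without Kit in sham, -1.36, was 0.19 with a minimum of 500 detected genes and 0.49 after thinning to 500 UMIs. The median over the members in the comparisons between libraries and in the Kit comparisons stayed within its main interval under every alternative run, but it is taken over members that differ in direction. Single ratios left their own main interval more often, 22 against 50 inside after subtraction of ambient RNA and 16 against 55 after thinning. With brown and white nuclei together 9 left it against 15 inside. Of the Kit ratios, 9 left it against 14 inside with at least 2 Kit UMIs as the line. The median ranged from -0.15 to -0.01 for denervated over untreated, from 0.37 to 0.52 for denervated over sham and from -0.65 to -0.47 for sham over untreated. With a limit of 10% mitochondrial UMIs or without removal of doublets, part of the untreated EC-like nuclei stayed unnamed, which left 2371 and 3872. With all libraries clustered together, sham had 2250 BA-like nuclei in place of 3447 and 1672 white adipocyte-like nuclei in place of 881.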

Other observations

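Smaller classes of nuclei held few UMIs of the members. Immune-like nuclei had 1077 CPM of Ppp1r3b (838 to 1363) in untreated from 71 nuclei, 86.1 CPM (31.6 to 187) in sham from 78 nuclei and 610 CPM (494 to 746) in denervated from 261 nuclei. Gbe1 had 515, 215 and 360 CPM in the same nuclei. In untreated, 20 of the 71 nuclei had a Ppp1r3b UMI, and its log2 ratio of BA-like over immune-like nuclei was 2.15 (1.81 to 2.51). For the adipocyte markers without Cd36, Lpl and Pparg this ratio ran from 1.14 (Pnpla2) to 2.72 (Adipoq). The part of carried-over adipocyte RNA in immune-like nuclei was not tested. Smooth muscle-like nuclei, 472 in sham and named in no other library, had 154 CPM of Gys1 (115 to 203) and 63.6 CPM of Ppp1r3b (39.4 to 97.2). The Schwann-like nuclei of sham, 138 in number, had 217 CPM of Gys1 (133 to 335) and 184 CPM of Ppp1r3b (107 to 295).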
